A study of Homo sapiens with 8 samples.

Results

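The introns described here are very long ones, of at least 20000 bases, in the messenger RNA precursors of SUM159 cells. They were chosen by length and by coverage: an intron had to be at least 20000 bases long and to have a total of at least 20 reads, intronic and spliced together, in each of the 8 libraries. Of 142206 introns listed with all values, 30262 passed the coverage minimum in every library, and 1095 of these, in 875 genes, were very long. They were 16.9% of the 6476 listed introns of that length, while 21.5% of the shorter introns passed the same minimum, so weakly expressed long genes are absent here. An intron whose total fell under the minimum in a single library is absent too.

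SUM159 is an established human triple-negative breast cancer line with mesenchymal features. Cells received H3B-8800, a spliceosome inhibitor directed at SF3b, or DMSO as vehicle, for 12 h. Polyadenylated RNA was sequenced with a stranded mRNA kit, either as recovered by J2, which is an antibody that recognises double-stranded RNA, or without that step as input. The 4 groups were J2 RNA with drug, J2 RNA with vehicle, input with drug and input with vehicle, each with 2 biological replicates. All 4 groups came from this 1 cell line and 1 treatment time, the labels give no dose, and no group used a control antibody. A difference of J2 RNA from input is therefore not tied to double-stranded RNA by these data. In bulk RNA, fewer cells carrying a transcript and less of it per cell cannot be told apart.

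Introns are removed by the spliceosome, whose U2 particle, through SF3b, recognises the branch point near the intron's end. In human genes, long introns are thought to be recognised mainly by exon definition, in which splice sites are paired across the short exons rather than across the intron. First introns are often the longest of a gene, and long introns commonly harbour alternative exons, antisense genes, small intronic genes and pseudogenes. A polyadenylated RNA that still holds an intron is a retained-intron transcript or an unfinished precursor, and these libraries do not separate the 2.

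The exon ends that meet when such an intron is spliced out are shown for the members at both ends of the drug response in the input. The first 3 are the introns with the largest log2 rise in the ratio of intronic to spliced reads among those named by the rule given below. They are free of other genes' exons. The last 3 have the smallest absolute log2 change of that ratio among introns with at least 200 spliced reads in every library. Of the last 3, the BCAS4 intron had no intronic read, so its ratio rests on spliced reads. The UBE2N intron had 0 to 4 intronic reads per library, and its log2 change of -0.04 in the input had a standard error of 0.82. Each sequence is 30 bases of spliced GENCODE 29 transcript on GRCh38, 15 from either side of the junction, written 5′ to 3′ on the gene's strand. Capitals mark the last 3 bases of the upstream exon and the first base of the next one. The intron itself, with its branch point and 3′ splice site, was not analysed here.
STXBP5 intron 4 (chr6:147239271-147260614, plus strand): attttgcagagaAAGGgttacattttgcca
RAI14 intron 3 (chr5:34757599-34795938, plus strand): tgagggcaagacCGCTttccatcttgctgc
TNS3 intron 17 (chr7:47346357-47368364, minus strand): ccaccgggcggcAAGGctcctctgctgaac
BCAS4 intron 1 (chr20:50795174-50818210, plus strand): gagcctggggccGAGGcgaaggaggtggag
UBE2N intron 1 (chr12:93411300-93441854, minus strand): cgcaggatcatcAAGGaaacccagcgtttg
DKK3 intron 4 (chr11:11968488-11998695, minus strand): ggcagaaggagcCACGagtgcatcatcgac
The exon end AG before the junction occurred on both sides of this division. Over all members with an annotated junction, 56.0% of 1064 upstream exons ended in AG, and so did 54.6% of 28521 shorter introns. The mean GC content of the 30 junction bases was 53.1% for the very long and 55.0% for the shorter introns. It was 54.7% for 141 very long introns whose share rose with drug in the input and 51.2% for 95 whose share fell. For 828 without a call it was 53.1%. Shorter introns had 56.7% where the share rose and 53.8% without a call, so a higher value with a rise was not particular to the members. These differences were not tested.

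The members ranged in length from 20006 to 471145 bases, with a median of 36031. There were 780 of 20000 to 49999 bases, 229 of 50000 to 99999 bases and 86 of at least 100000 bases. GENCODE 29 gave an intron number to 1064 of them. Of these, 538 (50.6%) were the first intron of the transcript, against 11.02% of the shorter introns tested, 186 were the second and 72 the last. The intron lay within the coding sequence in 871, between 5′ UTR exons in 191 and between 3′ UTR exons in 2. Exons of other transcripts of the same gene lay inside 697 members, and 624 members overlapped no exon of another gene. An exon of another gene lay on the same strand in 213 and on the opposite strand in 343. The counting's strand setting is not given in the sources used here, so reads of such genes cannot be told apart from intronic reads.

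The depths behind the deposited RPKM values were 50000000 and 53000000 reads for J2 RNA with drug and 53000000 and 57000000 for J2 RNA with vehicle. They were 47000000 and 48000000 reads for drug-treated input and 48000000 and 51000000 for vehicle input. Reads assigned to introns, spliced reads included, totalled 12612577 to 14643731 per library. Spliced reads were summed over the listed introns of a gene and are given per 1000000 reads of depth (RPM). Among the 8 mesenchymal genes looked at, CD44 and CAV1 had 1 listed intron each and ZEB1 5. SPARC had 7, VIM 9, FN1 and MSN 12 each and AXL 13. The values of different genes are therefore not on 1 scale. VIM was at 458.73 to 653.13, AXL at 151.81 to 276.94, MSN at 88.26 to 275.04 and SPARC at 76.84 to 213.46. FN1 was at 7.70 to 60.08, CAV1 at 9.24 to 28.90 and CD44 at 6.81 to 22.33, and ZEB1, a driver of mesenchymal states, was nearly absent at 0.04 to 0.90. ESR1 and PGR, whose receptors are absent from triple-negative tumours, had none. ERBB2, also on the list of genes expected to be low or absent, was at 16.36 to 37 RPM. Of the epithelial genes, EPCAM was at 0.04 RPM or less and CDH1 at 0.08 RPM or less, while the luminal keratin genes KRT8 and KRT18 were at 82.66 to 124.42 and 69.92 to 138.57 RPM. Markers of other cell types were low or absent, with CD3E at 0, PECAM1 at 0.09 or less and CD68 at 5.88 to 9.46 RPM.

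The intronic share of an intron is its intronic reads as a percentage of intronic plus spliced reads. Most members were spliced in most of their reads. For each intron the shares of the 2 libraries of a group were averaged, and the median was taken over introns. It was 3.57% in J2 RNA with drug, 3.73% in J2 RNA with vehicle, 3.81% in input with drug and 3.82% in input with vehicle. The same medians over the shorter introns were 2.04%, 0.0994%, 2.66% and 0.383%. A longer intron offers more room for reads, so intronic reads, summed over replicates, were also set per kilobase and per 1000 spliced reads. On that scale the medians of the very long introns were 0.914 in J2 RNA with drug, 1.02 in J2 RNA with vehicle, 1.03 in input with drug and 0.994 in input with vehicle. The shorter introns had 20.6 in J2 RNA with drug, 0.695 in J2 RNA with vehicle, 27.0 in input with drug and 2.98 in input with vehicle. The median very long intron thus had a like read density with drug and with vehicle, in J2 RNA and in input.

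A share above 50% was measured in 148 members (13.5%) in J2 RNA with drug, 140 (12.8%) in J2 RNA with vehicle, 137 (12.5%) in input with drug and 113 (10.3%) in input with vehicle. Among the shorter introns the percentages were 9.09% in J2 RNA with drug, 2.45% in J2 RNA with vehicle, 9.13% in input with drug and 2.30% in input with vehicle. Of the 113 in the input with vehicle, 41 were free of other genes' exons. The 5 highest there were in SLCO5A1, LHFPL3, NHSL2, TET1 and CAGE1, and each of these introns holds annotated exons of another gene or pseudogene. No intronic read was counted in any library in 47 members, which include the BCAS4 intron shown above (0 of 215 to 260 reads per library). BCAS4 was named for its amplification in breast cancer.

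Reads pooled over all members were dominated by a few introns. The pooled share was 37.8% ± 3.53 in J2 RNA with drug, 39.5% ± 4.52 in J2 RNA with vehicle, 50.8% ± 20.9 in input with drug and 28.3% ± 1.54 in input with vehicle (SD, n = 2 each). In the first input library with drug it was 65.6% and in the second 36.1%. The 10 introns with most intronic reads held 64.6% to 92.5% of the members' intronic reads per library, and none of them was free of other genes' exons. SLCO5A1 intron 6 alone had 270846 intronic reads of 270852 in that first library. In the members free of other genes' exons the pooled share was 11.7% ± 0.256 in J2 RNA with drug, 9.30% ± 0.0289 in J2 RNA with vehicle, 8.996% ± 0.217 in input with drug and 7.99% ± 0.0800 in input with vehicle (SD, n = 2 each). The replicates did not overlap between drug and vehicle in either RNA, and with 2 against 2 libraries the smallest two-sided exact permutation p is 0.333.

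With drug, the intronic share was higher in some very long introns and lower in others, with nearly even numbers in J2 RNA and more higher than lower in the input. The change was tested for each intron with limma on the log2 ratio of intronic to spliced reads, 1 being added to either, called the ratio below, with p-values adjusted over all 30262 introns and a threshold of 0.05. With drug, the ratio rose in 135 members (12.3%) and fell in 132 (12.1%) in J2 RNA, where over all tested introns 43.1% rose and 3.68% fell. In the input it rose in 145 members (13.2%) and fell in 97 (8.86%), where over all tested introns 41.5% rose and 2.64% fell. The lower counts shrank in fits that left out 1 library. In J2 RNA the marked case was the first library with vehicle. In the input the marked cases were the second library with drug and either library with vehicle. Each such fit leaves 1 library alone in its group. The median log2 change of the ratio was -0.08 over the members and 1.30 over all tested introns in J2 RNA, and 0.08 and 1.27 in the input. Relative to that shift of all introns, with each library centred on its own median ratio, 49 members rose and 400 fell in J2 RNA, and 43 rose and 383 fell in the input.

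Up to 50000 bases, the median change with drug was smaller in each longer class of introns. In J2 RNA the median log2 change of the ratio was 2.08 in introns under 100 bases, 1.78 from 100 to 299 bases, 1.48 from 300 to 999 bases, 1.16 from 1000 to 4999 bases and 0.60 from 5000 to 19999 bases. The members followed with -0.04 from 20000 to 49999 bases, -0.21 from 50000 to 99999 bases and 0.04 from 100000 bases. The percentage of introns that rose in J2 RNA was 60.4% in the shortest class, 26.7% in the class just under the members, and 13.5%, 9.61% and 9.30% in the members' 3 classes in order of length. In the input the medians were 1.96, 1.63, 1.40, 1.17 and 0.77 in the 5 shorter classes and 0.15, -0.16 and -0.18 in the members. Within the members the medians did not decline steadily in J2 RNA, where the longest class lay above the class before it. Without members that overlap exons of other genes, the medians of the 3 classes were -0.10, -0.14 and 0.65 in J2 RNA and 0.15, 0.05 and 0.65 in the input. In that longest class, of 26 introns, 6 rose (23.1%) and 2 fell in J2 RNA and 8 rose (30.8%) and 1 fell in the input. The class from 20000 to 49999 bases, with 504 such introns, had 13.9% higher in J2 RNA and 15.1% higher in the input. The difference between the classes was not tested.

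**Figure D1:**
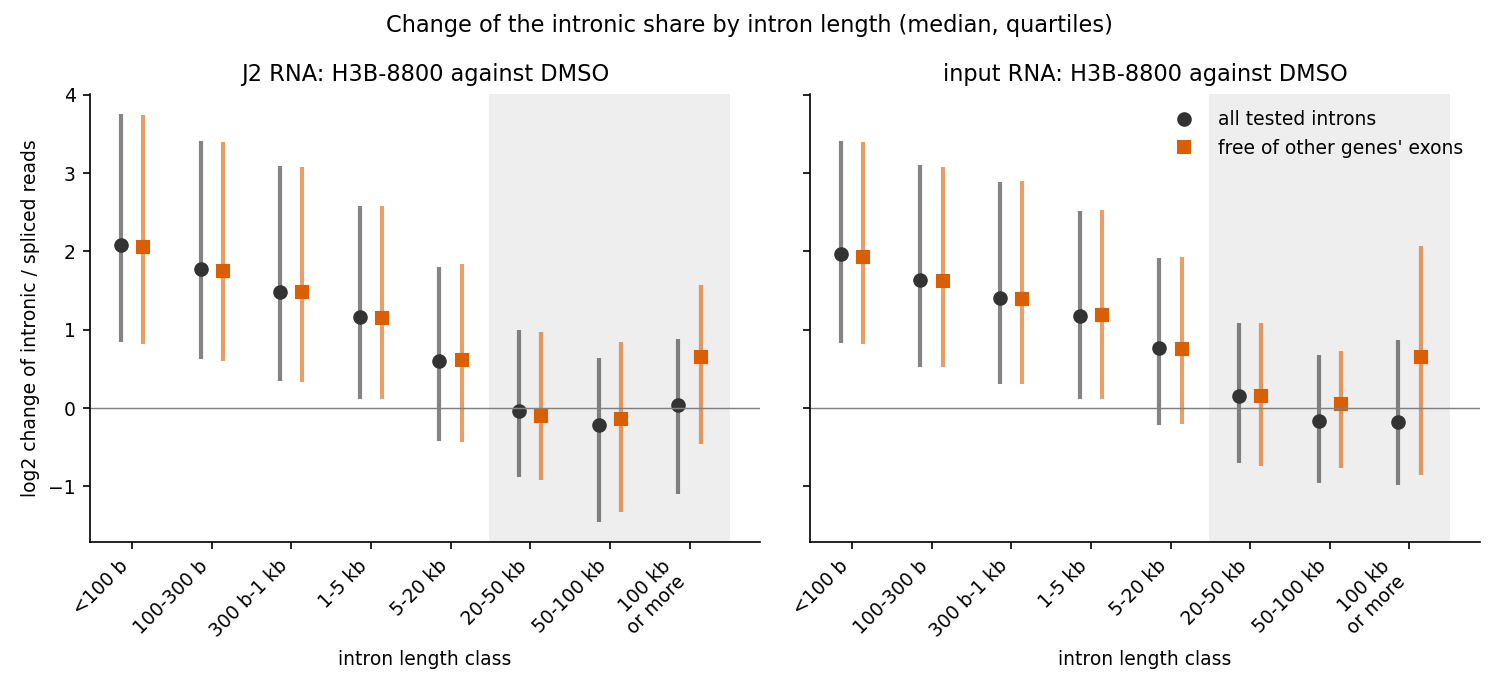
Median log2 change of the intronic to spliced ratio (y axis) with H3B-8800 against vehicle by class of intron length (x axis, bases), for J2 RNA and input, over all tested introns and over those free of other genes' exons; bars span the quartiles and grey marks the very long introns. Medians decline with length up to 50000 bases in both RNAs, and the longest class free of other genes' exons, with 26 introns, lies at 0.65 in both.

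The introns named next follow a rule: the largest called changes, alike in sign across all pairs of libraries, at least 20 reads per library on average in 1 of the groups, and no exon of another gene inside. Per-library values are given as intronic reads of the total, with percentages as the mean ± SD of n = 2 libraries. Intervals and limits from counts cover counting error only. The rule used no knowledge of the genes' functions, which are given as background.

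RAI14 encodes ankycorbin, an ankyrin-repeat protein bound to actin. Its intron 3 (38340 bases) had 279 of 319 and 262 of 301 reads in J2 RNA with drug, against 33 of 122 and 30 of 136 with vehicle. In the input it had 39 of 97 and 66 of 151 with drug, against 3 of 234 and 6 of 224 with vehicle. The share was thus 87.3% ± 0.295 with drug and 24.6% ± 3.53 with vehicle in J2 RNA, and 42.0% ± 2.48 and 1.98% ± 0.987 in the input, with no overlap of the libraries in either. The log2 change of the ratio was 4.34 ± 0.39 (SE) in J2 RNA (adjusted p = 0.000301) and 4.95 ± 0.39 in the input (adjusted p = 0.000254). Both parts moved: in the input, spliced reads fell by 1.59 on the log2 scale and intronic reads rose by 3.57 (edgeR's quasi-likelihood test, adjusted p = 1.4e-06 and 2.1e-14).

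STXBP5 encodes tomosyn, an inhibitor of SNARE-driven secretion. Its intron 4 (21344 bases, with no annotated exon inside) had 394 of 394 and 342 of 344 reads in the input with drug, against 82 of 95 and 70 of 82 with vehicle. In J2 RNA it had 258 of 259 and 386 of 388 with drug, against 72 of 77 and 68 of 70 with vehicle. Most of its reads were intronic in every library, and the spliced remainder was 2 or fewer reads per library with drug, against 2 to 13 with vehicle. The ratio rose by 5.22 ± 0.63 in the input (adjusted p = 0.00101) and by 2.95 ± 0.63 in J2 RNA (adjusted p = 0.00912).

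TNS3 encodes tensin 3, which links actin to integrins at focal adhesions. Its intron 17 (22008 bases, no exon inside) had 32 of 98 and 28 of 102 reads in the input with drug, against 3 of 108 and 0 of 85 with vehicle. In J2 RNA it had 14 of 64 and 12 of 73 with drug, against 1 of 55 and 5 of 56 with vehicle. The libraries did not overlap in either RNA, but only the input passed the test, with a change of 4.38 (adjusted p = 0.00394), against 1.94 in J2 RNA (adjusted p = 0.0719). With a pseudocount of 5 the change in the input was 2.88. Intron 20 of the same transcript (39751 bases) rose in both, with 21 of 97 and 26 of 88 reads in J2 RNA with drug against 5 of 74 and 5 of 74 with vehicle. The input had 42 of 152 and 53 of 158 with drug against 5 of 127 and 4 of 133 with vehicle, and the changes were 2.03 in J2 RNA and 3.36 in the input (adjusted p = 0.00442 and 0.000673).

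ABHD2, a serine hydrolase of the endoplasmic reticulum and plasma membrane, had no intronic read without the drug. Its intron 9 (20277 bases) had 28 of 57 and 31 of 67 reads in J2 RNA with drug against 0 of 34 and 0 of 40 with vehicle, which allows a share of up to 4.05%. In the input it had 44 of 155 and 30 of 165 with drug against 0 of 36 and 0 of 43 with vehicle, which allows up to 3.80%. From a floor of 3 counts over the vehicle group, its share was at least 11.7-fold higher with drug in J2 RNA and at least 6.09-fold higher in the input. ARHGEF10L, a guanine nucleotide exchange factor, had 44 of 93 and 27 of 88 reads in its intron 26 (22977 bases) in J2 RNA with drug, against 0 of 113 and 0 of 149 with vehicle, at least 34.3-fold higher in share. In the input its libraries with drug stood apart from each other, with 2 of 42 and 12 of 25 reads, against 4 of 73 and 2 of 87 with vehicle, and the change was not called (2.38, adjusted p = 0.134).

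ADCY3, an adenylate cyclase that makes cyclic AMP, had 32 of 67 and 27 of 68 reads in its intron 1 (45593 bases) in J2 RNA with drug, against 2 of 50 and 0 of 53 with vehicle. The ratio of the pooled shares was 22.5 (95% exact interval 5.96 to 190.2). In the input it had 12 of 36 and 10 of 32 with drug against 1 of 69 and 0 of 67 with vehicle, a ratio of 44.0 (7.11 to 1816). Every library with drug held several times the intronic reads of any library with vehicle.

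Other introns were mixed with vehicle and had few spliced reads with drug. PBX3 encodes a homeodomain partner of HOX proteins, and its intron 2 (167062 bases, with 6 exons of other PBX3 transcripts inside) had 160 of 161 and 147 of 154 reads in J2 RNA with drug against 35 of 55 and 26 of 60 with vehicle. The input had 140 of 148 and 108 of 119 with drug against 30 of 63 and 33 of 69 with vehicle, and the changes were 5.07 and 3.70 (adjusted p = 0.00218 and 0.00861). Without the first input library with drug, the PBX3 call in the input was lost (adjusted p = 0.0537), and so it was with libraries centred on their median ratio, where the change was 2.34. INPP5A, a phosphatase that ends inositol trisphosphate signals, had 551 of 561 and 499 of 512 reads in its intron 9 (22611 bases) in J2 RNA with drug against 126 of 180 and 128 of 191 with vehicle. In the input it had 281 of 294 and 306 of 318 with drug against 49 of 69 and 41 of 72 with vehicle, with changes of 4.29 and 3.62 (adjusted p = 0.00033 and 0.000738), and of 2.27 in the input after centring. GLIS1, a zinc finger transcription factor, changed by 2.98 and 3.72 (adjusted p = 0.00354 and 0.00162) in its intron 3 (64155 bases), where the share was 94.8% ± 2.56 with drug and 70.1% ± 5.65 with vehicle in J2 RNA and 97.1% ± 1.29 and 71.7% ± 3.03 in the input. After centring, the GLIS1 change in the input was 2.36.

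TRAF3IP1, a protein of intraflagellar transport, had shares of 85.2% ± 2.65 with drug and 40.2% ± 6.34 with vehicle in J2 RNA and 81.2% ± 6.57 and 25.3% ± 9.47 in the input for its intron 15 (41378 bases). Its ratio rose by 3.04 and 3.60 (adjusted p = 0.00338 and 0.00188), and by 2.24 in the input after centring. MTSS1, an I-BAR protein that bends membranes, had 33 of 33 and 38 of 39 reads in its intron 3 (108290 bases, with 4 exons of other MTSS1 transcripts inside) in J2 RNA with drug against 5 of 20 and 12 of 21 with vehicle. Its ratio rose by 5.20 in J2 RNA (adjusted p = 0.000926; 3.24 with a pseudocount of 5) and by 2.05 in the input (adjusted p = 0.0389). TBC1D22A, a protein with a Rab GTPase-activating domain, rose by 4.24 and 2.77 in intron 10 (23234 bases; adjusted p = 0.000537 and 0.00333). Its spliced reads fell by 2.91 in J2 RNA and 2.41 in the input on the log2 scale, while its intronic reads rose by 1.42 in J2 RNA (edgeR adjusted p = 0.00541) and had a change of 0.39 in the input (adjusted p = 0.725).

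The introns that fell had fewer intronic reads with drug, more spliced reads or both. GRB10, an adaptor that inhibits insulin and growth factor receptors, had the best covered of them: its intron 5 (42743 bases, no exon inside) had 11 of 959 and 12 of 905 reads in J2 RNA with drug against 124 of 763 and 115 of 719 with vehicle. The input had 10 of 714 and 17 of 806 with drug against 105 of 654 and 127 of 697 with vehicle. The share was 1.24% ± 0.127 with drug and 16.1% ± 0.182 with vehicle in J2 RNA, and 1.75% ± 0.501 and 17.1% ± 1.53 in the input. Its ratio fell by 3.84 in J2 RNA and by 3.46 in the input (adjusted p = 0.000196 and 0.000354), and spliced reads rose by 0.66 and 0.47.

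IMMP1L, a peptidase of the mitochondrial inner membrane, had 7 of 231 and 8 of 217 reads in its intron 4 (22689 bases, 6 own-gene exons inside) in J2 RNA with drug against 80 of 195 and 64 of 170 with vehicle. The input had 7 of 269 and 16 of 309 with drug against 69 of 239 and 67 of 251 with vehicle, and its ratio fell by 4.06 and 3.21 (adjusted p = 0.000377 and 0.00109). FMN2, a formin that nucleates actin filaments, had 2 of 183 and 1 of 201 reads in its intron 14 (36602 bases) in J2 RNA with drug against 31 of 68 and 32 of 88 with vehicle. That is a ratio of pooled shares of 0.0194 (95% exact interval 0.00389 to 0.0592). In the input FMN2 had 0 of 144 and 4 of 126 with drug against 14 of 72 and 17 of 81 with vehicle, and its ratio fell by 3.99 (adjusted p = 0.00812).

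DSCR3, also called VPS26C, is a subunit of the retriever complex that recycles endosomal cargo. Its intron 1 (26598 bases) had 10 of 155 and 14 of 172 reads in the input with drug against 118 of 213 and 117 of 230 with vehicle. In J2 RNA it had 25 of 132 and 33 of 168 with drug against 68 of 192 and 110 of 216 with vehicle, and the ratio fell by 3.75 in the input and 1.63 in J2 RNA (adjusted p = 0.000623 and 0.0155). COL4A6, a basement membrane collagen chain, had shares of 9.61% ± 4.27 with drug and 40.6% ± 5.66 with vehicle in J2 RNA and 4.68% ± 3.48 and 36.0% ± 3.73 in the input for its intron 3 (89373 bases). It fell by 2.61 and 3.55 (adjusted p = 0.0125 and 0.00398). LHFPL2, a tetraspan membrane protein, fell by 2.74 in J2 RNA and 1.05 in the input (adjusted p = 0.00105 and 0.0474) in intron 3 (54414 bases), which lies between 5′ UTR exons.

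Some of the lower calls were lost in fits that left out 1 library, in part with the change itself unaltered. AUH, an enzyme of leucine breakdown that also binds AU-rich RNA, fell by 2.90 in J2 RNA and 3.78 in the input in intron 5 (75028 bases; adjusted p = 0.0219 and 0.00844) while its spliced reads rose by 2.42 and 3.69. Its intronic reads had log2 changes of -0.06 and -0.28 with no call. Without the second J2 library with vehicle the AUH change in J2 RNA was -1.68, and the call was lost also without either J2 library with drug. ESYT2, a tether between endoplasmic reticulum and plasma membrane, had 6 of 158 and 2 of 138 reads in intron 1 (30016 bases) in J2 RNA with drug against 43 of 147 and 37 of 149 with vehicle, a change of -3.57 (adjusted p = 0.0152). In the input it had 0 of 135 and 7 of 170 with drug against 26 of 219 and 27 of 229 with vehicle, a change of -2.87 (adjusted p = 0.0352), which shrank to -1.51 without the first input library with drug. The ESYT2 call in J2 RNA was lost without the second J2 library with drug or either with vehicle. Its call in the input was lost in 7 of the 8 fits that left out 1 library, with a pseudocount of 0.5 and with the replicate number as a block. The J2 call of USP3, a histone deubiquitinase (-2.63 in intron 1, adjusted p = 0.0228), was lost without any 1 of the 4 J2 libraries. The USP3 change itself stayed between -2.65 and -2.61 in these fits.

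DCBLD2, a neuropilin-like membrane protein, fell by 2.24 in J2 RNA and 2.73 in the input in intron 3 (24094 bases; adjusted p = 0.0199 and 0.00986), and its input call was lost without the first input library with vehicle (adjusted p = 0.0573). NALCN, a sodium leak channel, had 37 of 48 and 26 of 52 reads in J2 RNA with drug against 148 of 159 and 120 of 130 with vehicle in an intron of 31279 bases, a change of -2.72 (adjusted p = 0.00905). In the input its libraries overlapped, with 38 of 44 and 39 of 47 with drug against 69 of 81 and 78 of 98 with vehicle, and the change was 0.14 (adjusted p = 0.857). GLCE, an epimerase of heparan sulfate synthesis, had 2 of 32 and 8 of 36 reads in intron 1 (49558 bases) in the input with drug against 38 of 85 and 36 of 50 with vehicle, a change of -3.03 (adjusted p = 0.0192). Its J2 libraries had 12 of 26 and 24 of 37 with drug against 14 of 38 and 18 of 46 with vehicle, a change of 0.99 (adjusted p = 0.33). The GLCE call in the input was lost without the first input library with drug or the second with vehicle, with a change of -2.19 in the smaller case.

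**Figure D2:**
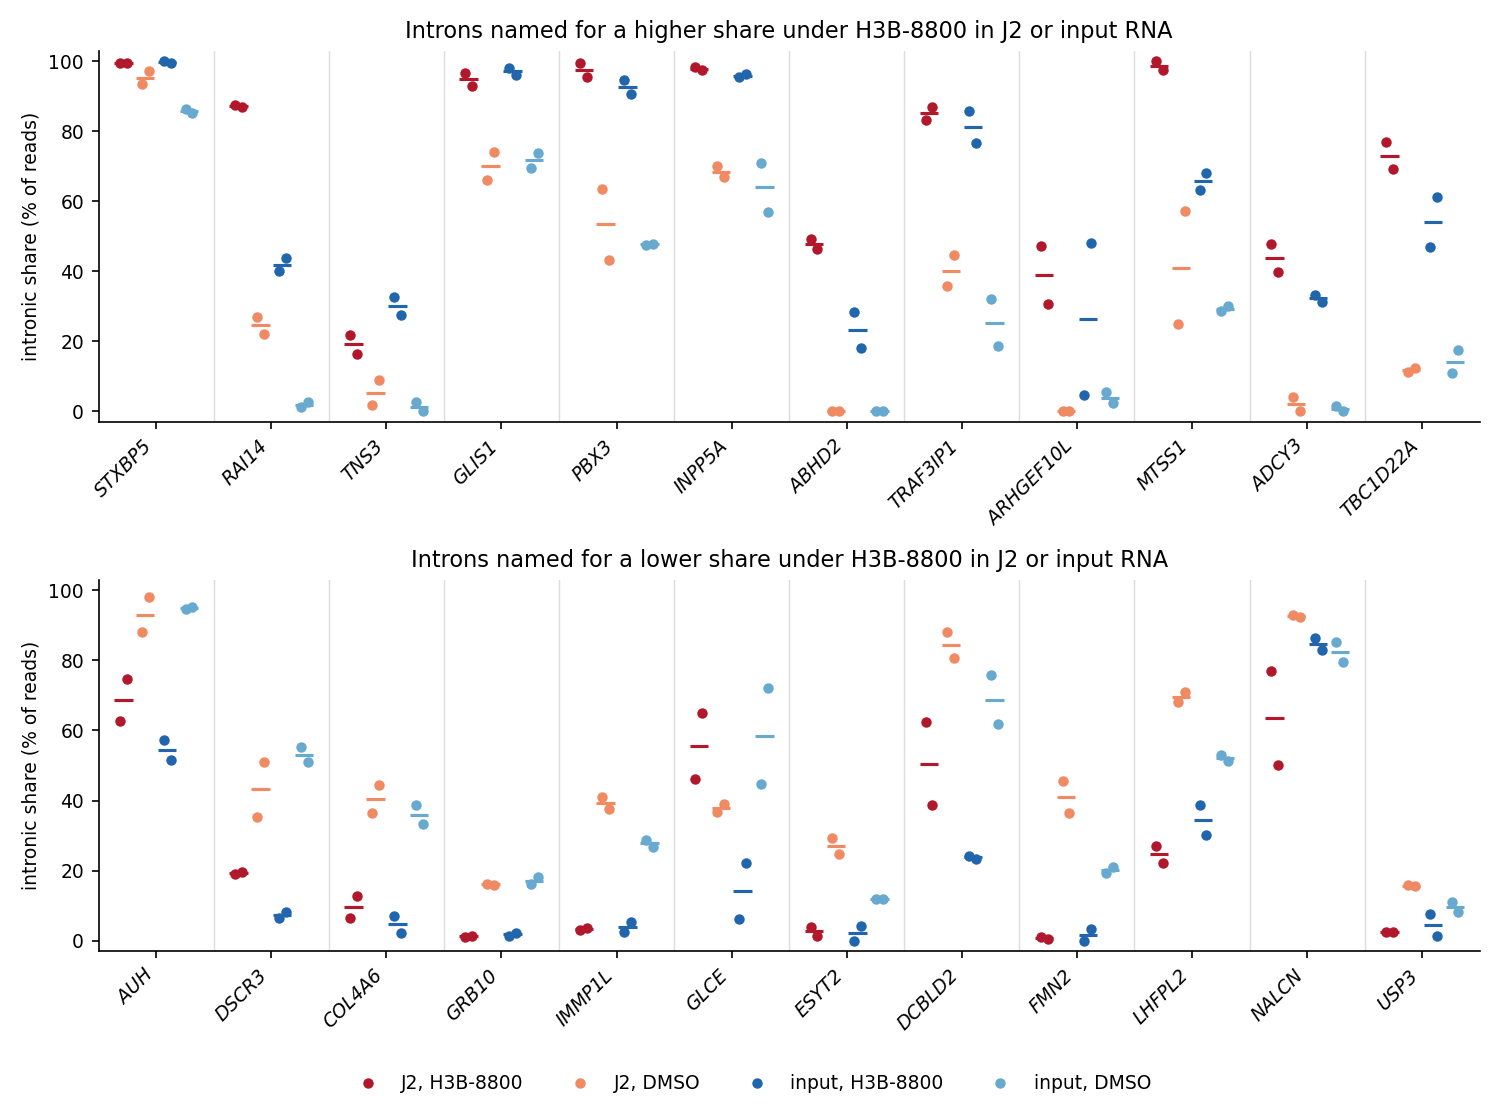
Intronic share in percent of reads (y axis) of the introns named for a higher or a lower share with drug, by gene (x axis), with 1 point per library in J2 RNA and input, with drug and with vehicle, and a bar at the mean of each group. The GRB10 points lie at 1.24% on average with drug in J2 RNA and at 16.1% with vehicle, and those of RAI14 at 87.3% and 24.6%.

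The J2 and input comparisons share no library, but both use 1 estimate of the spread per intron from all 8 libraries. Their calls are therefore not independent. The labels do not say whether both RNAs came from the same cultures. Of the members that rose, 80 did so in both, which is 59.3% of the J2 calls and 55.2% of the input calls. Of those that fell, 54 did so in both, 40.9% of the J2 calls and 55.7% of the input calls. Only 3 members were called in opposite directions. The same overlap was not counted over all tested introns, so it is not shown to be particular to the members. Across the 1095 members the log2 changes in J2 RNA and input had a Pearson r of 0.588 and a Spearman correlation of 0.509. Across 532 members with at least 40 intronic reads in the 8 libraries together, a filter chosen after the data were seen, these were 0.70 and 0.652, and the sign was the same in 71.4%. These are descriptions across introns, which share libraries and often genes.

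**Figure D3:**
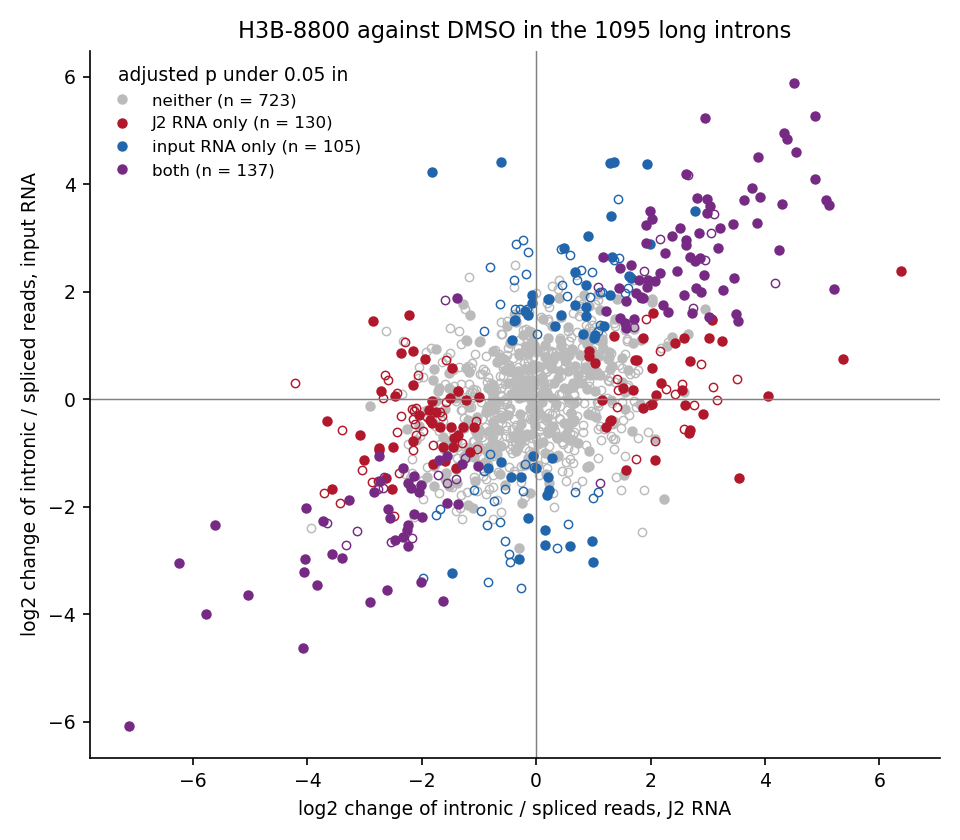
Log2 change of the intronic to spliced ratio with drug in J2 RNA (x axis) and in the input (y axis), 1 point per very long intron; filled points have at least 40 intronic reads over the 8 libraries and open points fewer, and colours show in which RNA the change was called. The 137 introns called in both lie mostly along the diagonal, beside 130 called in J2 RNA alone and 105 in the input alone.

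The interaction, which sets the drug effect in J2 RNA against that in the input, was called in 0 members and in 0% of all tested introns with limma. At an unadjusted p under 0.05 there were 174 members (15.9%), against 17.1% of all tested introns, and the smallest adjusted p among members was 0.0845. edgeR on the paired intronic and spliced counts called 2 higher and 1 lower. A difference between the RNAs in the drug effect on a named intron is therefore not shown.

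Behind the ratio stand 2 counts. Spliced reads were called more often than intronic reads, in the members as over all tested introns. In J2 RNA the calls either way were 61.2% and 22.6% of members, and 69.4% and 31.6% of all tested introns. In the input they were 56.4% and 18.9% of members, and 68.7% and 28.1% of all tested introns. Most members had few intronic reads, so a call of the 2 counts was not equally easy to reach. With drug, intronic reads rose in 158 members (14.4%) and fell in 90 (8.22%) in J2 RNA by edgeR's quasi-likelihood test at the deposited depths, against 30.1% and 1.5% of all tested introns. In the input they rose in 125 (11.4%) and fell in 82 (7.49%), against 26.5% and 1.55%. The median change was 0 over the members in both RNAs, and 1.58 in J2 RNA and 1.27 in the input over all tested introns. TMM scaling sets those general medians to 0.00 and 0.05, and under it intronic reads rose in 29 and fell in 328 members in J2 RNA and rose in 30 and fell in 262 in the input. The direction of the split therefore depends on the scaling. At the deposited depths, 55 fell in J2 RNA without the first J2 library with drug, and 46 fell in the input without the first input library with drug.

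Spliced reads rose with drug in 418 members (38.2%) and fell in 252 (23.0%) in J2 RNA, against 23.7% and 45.7% of all tested introns. In the input they rose in 325 (29.7%) and fell in 293 (26.8%), against 20.6% and 48.1%. The median change was 0.23 in J2 RNA and 0.00 in the input over the members, and -0.30 and -0.37 over all tested introns. TMM scaling moves the general medians to 0.01 and 0.03 and the members' to 0.54 and 0.40, with 519 higher and 153 lower in the input. Of the 135 members whose ratio rose in J2 RNA, 81 had more intronic reads by the test, 89 fewer spliced reads and 38 both. Of the 132 that fell, 49 had fewer intronic reads, 98 more spliced reads and 25 both. In 34 of the higher and 53 of the lower calls, drug and vehicle alike had under 10 intronic reads per library on average.

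Among intronic reads, CCNY, a membrane-bound cyclin, had a large change with many reads: intron 9 (22775 bases) had 215 of 384 and 217 of 427 reads in J2 RNA with drug against 6 of 48 and 9 of 67 with vehicle. The input had 149 of 256 and 148 of 233 with drug against 14 of 45 and 4 of 37 with vehicle. Spliced reads of CCNY rose too, so intronic reads rose by 4.92 and 4.08 (3.21 in J2 RNA under TMM) but the ratio by 2.79 and 2.56 (adjusted p = 0.00727 and 0.0108). In NRP1, a co-receptor of semaphorins and VEGF, intron 6 (27738 bases) had 45 of 1021 and 68 of 1128 reads in the input with drug against 4 of 324 and 2 of 348 with vehicle. PKP4, a plakophilin of cell junctions, had 37 of 110 and 42 of 129 reads in intron 1 (75961 bases) in J2 RNA with drug against 1 of 50 and 1 of 43 with vehicle, and 51 of 169 and 42 of 179 against 17 of 121 and 12 of 133 in the input. ARIH2, an E3 ubiquitin ligase, fell in both, with 14 of 73 and 34 of 140 reads in intron 3 (33798 bases) in J2 RNA with drug against 158 of 258 and 155 of 288 with vehicle, and 22 of 65 and 25 of 91 against 151 of 208 and 153 of 230 in the input. STAC, an adaptor of muscle and neuronal calcium channels, had 4 of 149 and 3 of 163 reads in intron 1 in the input with drug against 23 of 300 and 24 of 292 with vehicle. That fall of intronic reads was lost without the second input library with drug (adjusted p = 0.0608).

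Among spliced reads the FOXK1 intron stood out. FOXK1 is a forkhead transcription factor, and its intron 1 (57969 bases, no exon inside) had 10 of 276 and 6 of 271 reads in J2 RNA with drug against 18 of 26 and 10 of 29 with vehicle. The input had 4 of 261 and 6 of 289 with drug against 6 of 39 and 12 of 47 with vehicle. Spliced reads rose by 4.38 and 3.04, while intronic reads changed by -0.71 and -0.77 without a call. COL21A1, a fibril-associated collagen, had no intronic read in intron 16 in any library: totals were 68 and 89 in J2 RNA with drug against 166 and 167 with vehicle, and 38 and 28 in the input with drug against 138 and 147 with vehicle. Its ratio was still called higher in both RNAs (1.09 and 2.09, adjusted p = 0.0356 and 0.00309), since the added count of 1 turns a fall of spliced reads into a rise of the ratio. The same held for SND1 intron 10 in J2 RNA, with 0 of 29 and 0 of 34 reads with drug against 0 of 169 and 0 of 180 with vehicle, and a ratio change of 2.44 (adjusted p = 0.00284). SND1 encodes a nuclease with staphylococcal nuclease domains. Of all calls of the ratio in J2 RNA, 8 higher and 9 lower were of introns without an intronic read in the groups compared.

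Shorter introns of the same transcript gave a comparison within genes. Of the members, 828 in 640 genes had at least 1 shorter tested intron in their transcript. In J2 RNA the median log2 change of the ratio was -0.08 in these members and 0.91 in the shorter introns of their transcripts, with a median difference of -0.92. The member was below in 591 pairs (71.4%), and by gene in 468 genes against 172. In the input the medians were 0.12 and 0.82, the median difference was -0.76, and the member was below in 574 pairs (69.3%), by gene in 452 against 188. Spliced reads differed less, with a median difference of 0.15 in J2 RNA, where the member was above in 501 pairs (60.5%), and of 0.04 in the input, where it was above in 441.

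**Figure D4:**
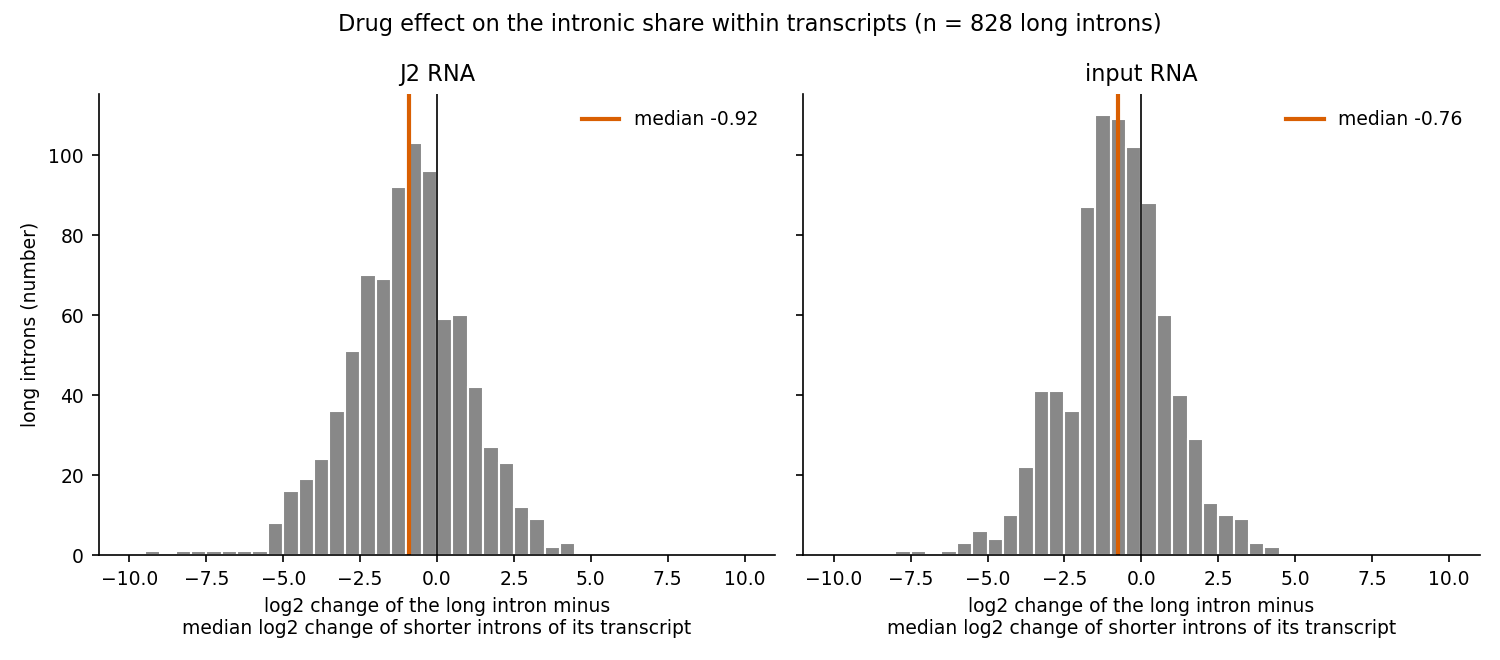
Number of very long introns (y axis) by the difference (x axis) between their own log2 change of the intronic to spliced ratio with drug and the median change of the shorter tested introns of their transcript, in J2 RNA and input; the black line marks 0 and the orange line the median. The medians are -0.92 in J2 RNA and -0.76 in the input, and most introns lie left of 0 in both.

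Position in the transcript went along with the response as well. The 538 very long first introns had a median change of -0.22 in J2 RNA, with 41 higher (7.62%) and 68 lower (12.6%), and of -0.05 in the input, with 51 higher (9.48%) and 42 lower (7.81%). The 526 very long later introns had 0.17 in J2 RNA, with 92 higher (17.5%) and 59 lower (11.2%), and 0.15 in the input, with 90 higher (17.1%) and 53 lower (10.1%). Shorter first introns (3147) had medians of 0.72 in J2 RNA and 0.76 in the input, and shorter later introns (25402) had 1.46 and 1.42, so very long introns had the lower median at either position. Spliced reads across very long first introns rose in 252 (46.8%) and fell in 78 (14.5%) in J2 RNA, and across later ones they rose in 159 (30.2%) and fell in 167 (31.7%). For shorter first introns 32.7% rose and 33.0% fell, and for shorter later ones 21.8% and 48.6%. In the input the very long first introns were more even, with 163 higher (30.3%) and 128 lower (23.8%), against 26.5% and 39.8% of shorter first introns. Very long later introns had 153 higher (29.1%) and 156 lower (29.7%) there, against 19.4% and 50.2% of shorter later ones.

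J2 RNA and input differed in few members. With drug, the ratio was higher in J2 RNA than in the input in 8 members and lower in 9, against 0.664% and 1.22% of all tested introns. With vehicle it was higher in 12 and lower in 3, against 0.387% and 1.11%. The medians were 0.11 with drug and 0.18 with vehicle over the members, and -0.09 and -0.18 over all tested introns. Each of these calls was lost when any 1 library was left out, and no member was called with a replicate block, so the values of the named introns are given as they stand. ERN1 encodes IRE1, the endoplasmic reticulum stress sensor, and its intron 1 (31734 bases) had 1084 of 1097 and 1084 of 1096 reads in J2 RNA with drug against 406 of 427 and 445 of 464 in the input with drug. With vehicle it had 542 of 547 and 638 of 642 in J2 RNA against 218 of 240 and 264 of 291 in the input.

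The first intron of EGFR, the epidermal growth factor receptor (122920 bases, 3 own-gene exons inside), had 184 of 194 and 205 of 211 reads in J2 RNA with vehicle against 177 of 226 and 160 of 211 in the input with vehicle. With drug it had 631 of 652 and 770 of 797 in J2 RNA against 404 of 457 and 425 of 468 in the input. Its intronic reads rose with drug by 1.94 in J2 RNA and by 1.36 in the input, and the ratio rose by 1.36 in the input (adjusted p = 0.0246), with a change of 0.34 in J2 RNA (adjusted p = 0.485). PCNXL4, a pecanex-like membrane protein, had 363 of 383 and 437 of 455 reads in its first intron in J2 RNA with drug against 175 of 260 and 193 of 269 in the input with drug. In the other direction, CPQ, a carboxypeptidase, had 0 of 49 and 2 of 33 reads in intron 3 in J2 RNA with drug against 56 of 83 and 30 of 61 in the input with drug, a ratio of pooled shares of 0.0408 (95% exact interval 0.00487 to 0.152). TFDP1, the partner of E2F factors, had 27 of 243 and 16 of 203 reads in intron 2 in J2 RNA with drug against 198 of 464 and 291 of 620 in the input. A4GALT, the Gb3 synthase, had 14 of 175 and 18 of 187 in its first intron in J2 RNA with drug against 40 of 101 and 71 of 148. ACSL4, an acyl-CoA synthetase for polyunsaturated fatty acids, had 27 of 46 and 37 of 73 reads in its first intron in J2 RNA with vehicle against 8 of 118 and 17 of 144 in the input with vehicle.

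Of the 875 genes, 724 held 1 member, and DENND1A, SND1 and TNS3 held 6 each. Agreement among members of 1 gene was not tested, and the calls in these 3 genes are given as they stand. In TNS3, introns 17 and 20 rose as given above, while intron 1 had a change of -1.44 in the input (adjusted p = 0.0373) and -0.27 in J2 RNA (adjusted p = 0.64), and the other 3 had no call. In DENND1A, a Rab exchange factor of the endocytic route, introns 1, 10, 12 and 13 rose in J2 RNA, intron 13 also in the input, and none fell. These calls rest on few intronic reads: intron 10 had 1 of 20 and 1 of 27 reads in J2 RNA with drug, against 0 of 77 and 0 of 79 with vehicle. In SND1, introns 10, 11 and 15 rose in J2 RNA and intron 11 in the input, none fell, and each library had 0 to 7 intronic reads per member. Introns 10 and 11 had no intronic read in J2 RNA, so their rises there come from fewer spliced reads alone. At the upper end of length, FRMD4A intron 2 (471145 bases) had shares of 59.8% ± 3.21 with drug and 55.4% ± 3.89 with vehicle in J2 RNA and 68.1% ± 9.28 and 58.5% ± 0.622 in the input, with no call. FRMD4A encodes a scaffold protein of epithelial polarity. BCAS3 intron 22 (283762 bases) rose by 1.69 in J2 RNA (adjusted p = 0.0046), with shares of 48.8% ± 1.01 with drug and 22.7% ± 1.05 with vehicle, and UBE2E2 intron 3 (282295 bases) fell by 2.74 there (adjusted p = 0.0127). All 3 contain exons of other genes. At the lower limit of length, introns of SMCO4, GPAT4 and FBRSL1 (20006, 20013 and 20014 bases) were just inside, with input changes of 0.51, 0.56 and 1.57. Introns of ASAP1, DAG1 and PIR (19950, 19977 and 19988 bases) were just outside, with input changes of 2.17, -0.73 and 0.82. The DAG1 and PIR introns had no intronic read in the input, so their changes there come from spliced reads alone.

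Members were also counted by the function of their gene, over 8 lists of gene symbols. The counts are small, and the shares to set them beside are 12.3% higher and 12.1% lower in J2 RNA and 13.2% and 8.86% in the input over all members. Among chromatin and transcription regulators (54 symbols, 21 members in 14 genes) the ratio rose in 1 and fell in 5 in J2 RNA and rose in 1 and fell in 4 in the input, with medians of 0.55 and -0.79, so the median and most calls differed in sign in J2 RNA. PHF20, a reader in a histone acetyltransferase complex, had 14 of 133 and 17 of 127 reads in J2 RNA with drug against 72 of 177 and 77 of 181 with vehicle. It fell by 2.33 and 2.55 (adjusted p = 0.00182 and 0.00142). ZEB2, a repressor of E-cadherin that drives mesenchymal states, fell by 3.40 and 2.94 (adjusted p = 0.000641 and 0.00131), in an intron that overlaps exons of another gene. Spliced reads rose in 9 and fell in 0 of these 21 members in J2 RNA, where 38.2% of all members and 23.7% of all tested introns rose. In the input they rose in 14 and fell in 2, where 29.7% of all members and 20.6% of all tested introns rose.

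For adhesion and actin genes (43 symbols, 18 members in 9 genes), 2 rose and 2 fell in J2 RNA and 5 rose and 1 fell in the input, with medians of -0.09 and 0.05. TRIO, a guanine nucleotide exchange factor, had no intronic read with vehicle in its intron of 21450 bases, and its share was at least 2.47-fold higher with drug in J2 RNA and at least 2.62-fold higher in the input. In endocytosis and membrane traffic (40 symbols, 20 members in 12 genes), 7 rose and 0 fell in J2 RNA and 2 rose and 1 fell in the input, with medians of 0.56 and 0.16. Over all tested introns 43.1% rose in J2 RNA and 41.5% in the input. DENND1A supplied 4 of the 7, on the few intronic reads given above. In the ubiquitin system (47 symbols, 13 members in 10 genes), 2 rose and 2 fell in J2 RNA and 2 rose and 0 fell in the input. CUL1, the scaffold of SCF ligases, had 284 of 328 and 303 of 343 reads in J2 RNA with drug against 160 of 233 and 180 of 251 with vehicle, and rose by 1.55 and 1.41 (adjusted p = 0.00613 and 0.00953). RNF130, a membrane RING ligase, rose by 1.92 and 3.23 (adjusted p = 0.0133 and 0.0018).

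For Hippo, TGF-beta and Wnt signalling (31 symbols, 10 members in 9 genes), 0 rose and 1 fell in J2 RNA and 1 rose and 2 fell in the input. LRP5, a Wnt co-receptor, had 48 of 69 and 55 of 79 reads in the input with drug against 24 of 75 and 27 of 78 with vehicle, and rose by 2.13 (adjusted p = 0.0035). AXIN1, the scaffold of the beta-catenin destruction complex, had 19 of 143 and 8 of 141 reads in the input with drug against 81 of 302 and 92 of 305 with vehicle, and fell by 1.95 (adjusted p = 0.0135), and by 1.36 in J2 RNA (adjusted p = 0.0461). Growth factor receptors and adaptors (32 symbols, 8 members in 7 genes) had 0 calls in J2 RNA by limma, 1 at an unadjusted p under 0.05, and 1 rise in the input, that of EGFR. RNA processing genes (37 symbols, 5 members in 4 genes) had 0 calls of the ratio in either RNA by limma, and 0 at an unadjusted p under 0.05. None of 16 fragile-site and very long tumour suppressor genes had a member, since none had an intron of this length with the required coverage.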

How the data were processed

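The authors deposited, per library, a headerless table of introns with 2 raw counts and an RPKM per intron. The submitters' processing notes name HISAT2 2.0.4 as a tool and list hg38 beside mm10, and the coordinates are those of hg38; the counting program and strand setting are not given in the sources used here. The first deposited count was taken as intronic reads and the excess of the second as spliced reads, inferred from the values. The RPKM, made by the authors from the first count, served only to recover each library's depth, used as library size. Of 142224 introns, 18 lacked values.

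The ratio was tested with limma 3.58.1 (pseudocount 1, trend over mean total, 4 group means, 8 libraries), intronic and spliced counts with edgeR 4.0.16 (quasi-likelihood), in R 4.3.3, over 30262 introns with Benjamini-Hochberg adjustment at 0.05. DESeq2 1.42.0 was an alternative. Steps were tested on simulated data. Annotation and junction sequences came from GENCODE 29; intron sequence was planned but not used here. Named introns have the largest called changes, up to 8 each way for the ratio with drug, 4 for J2 against input and 5 for either count, plus the longest, the highest in share, those at the length limit, genes with most members and up to 4 per list. Members and lists were chosen with earlier results of these data known. The labels call the replicates biological but name no separate cultures or pairs, so p-values measure the spread between these libraries. Replicates differed by more than sampling noise (chi-square per degree of freedom 1.73 to 13.4). Alternatives were another pseudocount, scaling, coverage or length limit, edgeR on paired counts, overlap-free members, a replicate block and leaving out each library.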

Additional observations from a re-analysis of the deposited data

Results flagged for a closer look

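In 3 named introns every pair of libraries with drug and with vehicle moved one way in J2 RNA and the opposite way in the input. The log2 change of the GLCE ratio was 0.99 in J2 RNA and -3.03 in the input. That of ERN1 was -0.42 in J2 RNA and 1.10 in the input, and that of ACSL4 was -2.15 in J2 RNA and 0.89 in the input. The difference itself was tested as an interaction with limma and was called in none of the 3 (adjusted p = 0.15 for GLCE, 0.17 for ERN1 and 0.12 for ACSL4). Groups of 2 libraries are too small for a test of single outlying libraries.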

How the results depend on the processing

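Counts below are of very long introns, higher then lower, with drug in J2 RNA and then in the input. The ratio gave 135 and 132, then 145 and 97. It gave 237 and 248, then 220 and 180 with a pseudocount of 5, and 81 and 77, then 81 and 60 with a total of at least 50. Centred libraries gave 49 and 400, then 43 and 383. Members free of other genes' exons gave 86 and 70, then 90 and 61, and those of at least 50000 bases 30 and 49, then 29 and 34. edgeR on paired counts gave 92 and 68, then 85 and 48. Leaving out 1 library gave 91 to 139 and 85 to 128, then 107 to 143 and 53 to 98.

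J2 against input gave 8 and 9 with drug and 12 and 3 with vehicle. These became 126 and 73, then 132 and 42 with a pseudocount of 5, and 3 and 3, then 5 and 0 from 50000 bases. Centring gave 20 higher with drug and 1 lower with vehicle, edgeR 13 higher with drug, and overlap-free members 4 lower with drug. With at least 40 intronic reads, a filter chosen after seeing the data, there were 23 and 10 with vehicle, and with edgeR also 38 and 19, then 33 and 10. Every fit that left out 1 library gave 0 each way. The interaction, 0 each way and 0 without any 1 library, gave 36 and 36 with a pseudocount of 5, 2 and 1 with edgeR, and 7 and 8 with edgeR and that filter.

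Intronic reads gave 29 and 328, then 30 and 262 under TMM, 33 and 326, then 26 and 279 under median-of-ratios scaling, and 30 and 340, then 27 and 292 with DESeq2. Overlap-free members gave 94 and 45, then 74 and 36, and leaving out 1 library 106 to 165 and 55 to 94, then 91 to 132 and 46 to 86. Spliced reads gave 519 and 153 in the input under TMM and 514 and 157 under median-of-ratios, 152 lower in J2 RNA and 112 lower in the input with DESeq2, and 250 and 143, then 197 and 160 for overlap-free members. Leaving out 1 library gave 361 to 420 and 218 to 257, then 249 to 340 and 228 to 316.

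The labels pair no replicates, and deviations of same-numbered libraries correlated by -0.0484 to 0.0506. With the replicate number as a block, the ratio gave 134 and 121, then 140 and 86, and J2 against input 0 each way.

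The pooled shares (J2 with drug, J2 with vehicle, input with drug, input with vehicle) became 3.65%, 3.78%, 3.71% and 3.72% as medians over members and 2.60%, 2.57%, 2.82% and 2.77% as medians over overlap-free members. Pooled over overlap-free members they were 11.7%, 9.30%, 8.996% and 7.99%, and without the 10 introns with most intronic reads 15.4%, 12.7%, 12.5% and 11.8%. Without 1 library they were 35.3% to 40.3%, 36.3% to 42.7%, 36.1% to 65.6% and 27.3% to 29.4%. No named value turned its sign under any alternative run, and in 553 of 664 refits without 1 library the named call was kept. A library left alone in its group was assumed to vary like the other groups. The cause of these differences was not tested. In 636 members in J2 RNA and 640 in the input, drug and vehicle alike had under 10 intronic reads per library on average. Changes of the ratio there rest on few intronic reads, and their intronic and spliced parts were not separated.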
